A study of Mus musculus with 14 samples.

Results

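The RNA of mouse hepatocellular carcinoma (HCC) cells that lack ACSS2 while ACLY is intact was compared with that of WT cells of the same line. The comparison takes 7 of the 14 libraries of the series, chosen by their labels: 4 WT libraries and 3 ACSS2 KO libraries. The cells were lines made from liver tumors that diethylnitrosamine had induced in Acly f/f mice, and both groups carry the floxed Acly alleles and received no Cre. WT cells (cell line label D42V) were a bulk population that had been transduced with LentiCRISPR v2 carrying no guide. ACSS2 KO cells carried the same vector with a guide against the first exon of Acss2, and after puromycin selection they were grown from a single cell by limiting dilution. All cells had spent 24 hours in DMEM with 10% calf serum before RNA was taken, and poly(A) RNA was sequenced from single ends. The ACSS2 KO libraries come from 1 clone and the WT libraries from a mixed population, so the genotype and the clone cannot be told apart. Nothing in the labels says that libraries of a group came from separate cultures, so p-values measure only the spread between these libraries, which may be technical.

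ACSS2 makes acetyl-CoA from acetate in the cytosol and the nucleus, and ACLY makes it from citrate that has left the mitochondria. Cytosolic acetyl-CoA is the carbon source of fatty acids and, through HMG-CoA, of sterols, and it is the acetyl donor for histones. Enzymes of both routes, Acss2 and Acly included, are under the SREBP transcription factors, which are activated when cell sterols are low. A further set of genes described here belongs to the integrated stress response, in which the transcription factor ATF4 raises amino acid transporters, serine and glycine enzymes and tRNA synthetases when eIF2α is phosphorylated.

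The values are normalized counts, that is, counts per gene that the authors had divided by DESeq normalization factors. Their totals were 25562314 to 26714304 in WT and 23973203 to 24121790 in ACSS2 KO libraries, with implied depths of 19167902 to 23087291 and 22958440 to 33527854 reads. Genes with a mean of at least 10 over the 7 libraries, which left 12474, entered limma as log2(value + 1), a scale on which the added 1 shrinks the fold change of low genes. Log2 fold changes are ACSS2 KO less WT, and p-values were adjusted over all 12474 genes by the Benjamini-Hochberg method. A gene was called at an adjusted p under 0.05. WT replicate 2 and ACSS2 KO replicate 1 held more RNA of short transcripts than the rest of their groups (Spearman's rho with transcript length across genes of -0.634 and -0.559). They are called the short-transcript libraries here, and leaving out both is an alternative chosen after seeing the data. The label of a liver cancer line was checked with marker lists. Of 15 hepatocyte markers, 8 were high enough to be tested and Serpina1a was at 0 in every library, and their summed level was 416.2 to 483.1 normalized counts in WT and 405.7 to 437.4 in ACSS2 KO. The summed level of 20 cholangiocyte markers, led by Spp1, Krt7 and Krt19, was far higher, at 44710 to 55550 in WT and 50030 to 52800 in ACSS2 KO. Of 24 macrophage and leukocyte markers, 7 were at 0 in all 7 libraries, Adgre1 and Clec4f among them, and the summed level was 1431 to 1543 in WT and 1630 to 1746 in ACSS2 KO. The endothelial list summed to 2310 to 3297 in WT and 3503 to 3970 in ACSS2 KO, with Lyve1, Stab2 and Clec4g at 0 in every library, and the list of stellate cell and fibroblast markers to 106200 to 136600 in WT and 81140 to 91140 in ACSS2 KO, mostly Vim. The part of these marker levels in the results was not tested.

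The targeted gene was lower in the knockout but its mRNA was not lost. Acss2 had 239, 252, 233 and 224 normalized counts in the WT libraries and 127, 135 and 135 in the ACSS2 KO libraries. The groups did not overlap, and the log2 fold change was -0.84 (standard error 0.082, adjusted p = 0.00017 from limma). A guide that cuts an exon need not remove the transcript, and protein was not measured in these files. The study reported that label from acetate no longer reached acetyl-CoA in its ACSS2 KO cells. Acly had 6052, 5461, 6435 and 6251 in WT and 5542, 5748 and 5762 in ACSS2 KO. The groups overlapped, and its log2 fold change of -0.09 did not pass the test (adjusted p = 0.38) and changed sign with equal library totals (0.019) and with quantile normalization (0.032), while it passed at -0.14 without WT replicate 2 (adjusted p = 0.027) and at -0.11 after a correction for transcript length (adjusted p = 0.040).

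Other genes of acetyl-CoA supply were called in both directions. Of 24 genes in a list of acetate and acetyl-CoA supply, 19 were tested, and 2 were higher (10.5%) and 4 lower (21.1%), Acss2 included. Over all genes tested, 18.1% were higher and 13.7% lower at the same limit. Off chromosomes 1, 3, 11 and 14, which shifted as wholes, 1 of 14 members was higher and 3 lower, against 1554 and 1359 of 9725 genes. The split of the list turned with the settings, with 7 higher and 3 lower under equal library totals, 5 and 5 after the length correction, and 6 and 4 without both short-transcript libraries. Slc16a3, the monocarboxylate transporter MCT4 that exports lactate, had 1628, 1577, 1562 and 1766 normalized counts in WT and 501, 566 and 549 in ACSS2 KO. No ACSS2 KO library reached the lowest WT library (log2 fold change -1.60, standard error 0.07, adjusted p = 5.1e-06). In the ACLY KO libraries of the series, which are set against the same WT libraries, Slc16a3 was also low, at 152, 138, 123 and 137. Aacs, the cytosolic acetoacetyl-CoA synthetase that turns ketone bodies into acetoacetyl-CoA, had 2479, 2544, 2315 and 2342 in WT and 1569.6, 1635 and 1549 in ACSS2 KO, again with no overlap (log2 fold change -0.61, standard error 0.06, adjusted p = 0.00018). Pdha1, a subunit of the pyruvate dehydrogenase complex that makes acetyl-CoA inside mitochondria, was lower by a small amount, 7209, 7321, 7326 and 7194 against 6349, 6170.1 and 6187 (log2 fold change -0.22, adjusted p = 0.012), and lost its call without ACSS2 KO replicate 2 or 4 (adjusted p of 0.063 and 0.065) and with equal library totals (0.13) or quantile normalization (0.22). Aldh1b1, a mitochondrial aldehyde dehydrogenase that forms acetate from acetaldehyde, was low in every library but higher in ACSS2 KO, with 31.7, 23.5, 22.7 and 29.3 in WT and 64.1, 59.0 and 65.5 in ACSS2 KO (log2 fold change 1.21, standard error 0.17, adjusted p = 0.001). Slc22a5, the plasma membrane carnitine transporter, changed by 0.30 (log2, adjusted p = 0.034), and its call was lost on leaving out any library other than WT replicate 2 (adjusted p of 0.055 to 0.12). The mitochondrial acetyl-CoA synthetase Acss1 and the acetyl-CoA hydrolase Acot12 were at 0 in all 7 libraries.

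Across the genome 2254 genes were higher and 1714 lower in ACSS2 KO than in WT. This split depended on scaling: with library totals set equal, 3161 were higher and 1011 lower, and the median of all genes moved from 0.00143 to 0.107. The number of calls was 2367 without ACSS2 KO replicate 4 and 6035 without WT replicate 2. The shares of all genes called higher and lower, the background of each list count under the same setting, were 25.3% and 8.1% with equal totals, 15.7% and 15% with quantile normalization, 23.8% and 21.6% after the length correction, and 23% and 22.2% without both short-transcript libraries. The libraries of the groups did not overlap for 2938 genes higher in ACSS2 KO (23.6% of those tested) and 2526 lower (20.3%). At the limits used in the study for differential expression, a change of more than 1.5 on the log2 scale either way with an adjusted p under 0.01, 233 genes were higher (1.87%) and 110 lower (0.882%).

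**Figure D1:**
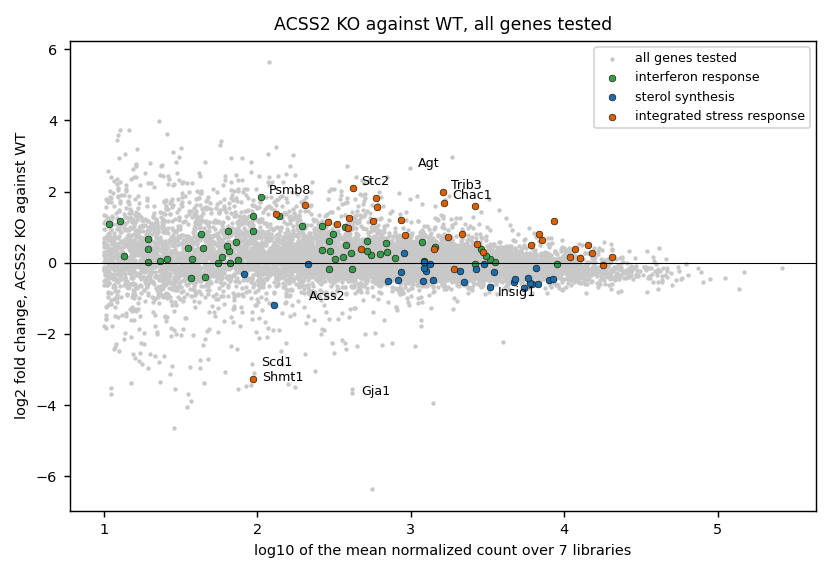
Log2 fold change of ACSS2 KO against WT for each of the 12474 genes tested (vertical axis) by the log10 of its mean normalized count over the 7 libraries (horizontal axis), with members of 3 gene lists in color. Most integrated stress response genes lie above 0 at every level, Shmt1 lies far below, and most sterol synthesis genes lie below 0.

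Of the 45 lists, the integrated stress response with serine synthesis had the largest share of higher members. Of its 34 genes, all tested, 26 were higher in ACSS2 KO (76.5%, against 18.1% of all genes), 1 was lower and 7 were not called, namely Atf4, Cebpb, Psat1, Phgdh, Mthfd1l, Slc7a1 and Slc38a2. The median log2 fold change was 0.80 against 0.00143 over all genes, and 14 members rose by more than 1 on the log2 scale. For 27 members every ACSS2 KO library lay above every WT library, as for 23.6% of all genes. ACSS2 KO replicate 4 had the highest value of the 7 libraries for 27 of the 34 members, against 2104 of all 12474 genes, and without that library 25 members were still higher.

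Several regulators and effectors in the list rose, while Atf4 and Cebpb did not pass. Chac1, an enzyme that breaks down glutathione, had 904, 824, 849 and 819 normalized counts in WT and 2691, 2463 and 3047 in ACSS2 KO. Its groups were far apart (log2 fold change 1.68, standard error 0.08, adjusted p = 6.4e-06). Trib3, a pseudokinase induced by ATF4 and CHOP that restrains their activity, had 721, 769.7, 731 and 625 in WT and 2731, 2369 and 3421 in ACSS2 KO (log2 fold change 1.98, standard error 0.13, adjusted p = 2.1e-05). Sesn2, a leucine sensor that restrains mTORC1, had 296, 261, 311 and 279 in WT and 937, 967 and 1133 in ACSS2 KO, with no overlap (log2 fold change 1.81, standard error 0.09, adjusted p = 7.7e-06). Stc2, a secreted glycoprotein induced by stress of the endoplasmic reticulum, had 158, 196, 157 and 192 in WT and 713, 675 and 859.8 in ACSS2 KO (log2 fold change 2.09, standard error 0.12, adjusted p = 1.3e-05). Stc2 lies on chromosome 11, whose genes had a median log2 fold change of 0.137. Nupr1, a small stress-induced chromatin protein, was chosen after its values were seen and had 189.5, 212, 164 and 190.3 in WT and 379, 359.6 and 519 in ACSS2 KO (log2 fold change 1.13, standard error 0.14, adjusted p = 0.00064). In each of these 5 genes the lowest ACSS2 KO library was above the highest WT library. Atf4 itself, also chosen after its values were seen, did not pass: it had 13979.6, 16207, 12694 and 12833 in WT and 17273, 15754 and 17359 in ACSS2 KO, WT replicate 2 overlapped the ACSS2 KO range, and the log2 fold change was 0.28 (adjusted p = 0.059). Without WT replicate 2 it was 0.35 (adjusted p = 5.1e-04).

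Genes that bring in or make amino acids were called in part, and the transporters Slc7a1 and Slc38a2 did not pass. Cbs, which makes cystathionine from homocysteine and serine, had 369.5, 309.5, 321 and 307 in WT and 969, 858 and 1112 in ACSS2 KO (log2 fold change 1.58, standard error 0.11, adjusted p = 2.7e-05). Of genes chosen after their values were seen, Slc7a11, the cystine transporter, had 347, 340.2, 377 and 391 in WT and 745, 693 and 1084 in ACSS2 KO (log2 fold change 1.18, standard error 0.15, adjusted p = 0.00062). Slc7a11 lies on chromosome 3, where the median log2 fold change was -0.235. Asns, the asparagine synthetase, had 5928, 6165, 5418 and 5456 in WT and 9018, 7888 and 10075 in ACSS2 KO (log2 fold change 0.64, standard error 0.09, adjusted p = 0.0013). All 3 genes had no overlap between groups. The first steps of serine synthesis, in contrast, were not called: Phgdh had 18886, 20787, 16637 and 17002 in WT and 17643, 16667 and 17668 in ACSS2 KO (log2 fold change -0.08, adjusted p = 0.55), a change whose sign turned with equal library totals (0.030) and quantile normalization (0.13). Psat1 had 19522, 18699, 19999 and 19567 in WT and 21737, 20449 and 22884 in ACSS2 KO (log2 fold change 0.16, adjusted p = 0.1), and it passed with equal library totals (adjusted p = 0.019), with quantile normalization (adjusted p = 0.010) and without WT replicate 2 (adjusted p = 0.047). Vldlr, a lipoprotein receptor that ATF4 induces, was named after its values were seen and had 1409, 1222, 1511 and 1384 in WT and 3813, 3913 and 4949.9 in ACSS2 KO (log2 fold change 1.61, standard error 0.11, adjusted p = 2.7e-05).

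The enzymes that pass one-carbon units between serine and glycine moved in opposite directions. Shmt2, the mitochondrial serine hydroxymethyltransferase (chosen after its values were seen), had 5829.9, 5463, 5293 and 5401 normalized counts in WT and 12134, 11169 and 14373 in ACSS2 KO (log2 fold change 1.18, standard error 0.09, adjusted p = 4.9e-05). Shmt1, the cytosolic enzyme that runs the same reaction, was the member that fell, from 167, 153, 132 and 155 in WT to 16.4, 9.31 and 20.8 in ACSS2 KO (log2 fold change -3.27, standard error 0.24, adjusted p = 4.4e-05). Neither gene had overlapping groups. Shmt1 lies on chromosome 11 from 60788104 to 60811718 in GRCm38, on a chromosome whose median was positive. ACLY KO and DKO1 libraries also held little Shmt1, 15.3 to 30.6 and 23.1 to 30.1. Shmt2 had 8004 to 8820.3 in ACLY KO, between the levels of WT and ACSS2 KO.

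The promoters of stress response genes often hold the composite site that ATF4 and a C/EBP partner bind. Windows of 250 bases before the start of each gene, from the RefSeq annotation of GRCm38.p6, were searched on both strands for TGATGNAA. Of 31 list members with a promoter sequence, 7 held a match (22.6%), against 1056 of 27025 gene symbols (3.91%). They were Chac1, Vldlr, Slc7a11, Nupr1, Pycr1, Atf3 and Asns. All 7 genes were called higher in ACSS2 KO, but so were 26 of the 34 list members (76.5%). Since members were chosen as stress response genes with earlier results of these data known, these shares are a description. A match is a description of the sequence and not evidence that a factor binds there. Parts of the windows of 4 of them are printed here as examples of the 7 genes with a match. Each part holds the match in capitals with up to 50 bases on either side, 5′ to 3′ on the gene's own strand. Chac1 is at chr2:119350999-119351106 on the plus strand with the match reading on the other strand. Slc7a11 is at chr3:50443614-50443729 on the minus strand with matches on opposite strands. Nupr1 is at chr7:126625523-126625630 on the minus strand with the match reading on the other strand. Asns is at chr6:7693210-7693282 on the minus strand with the match reading on the gene's own strand.
Chac1: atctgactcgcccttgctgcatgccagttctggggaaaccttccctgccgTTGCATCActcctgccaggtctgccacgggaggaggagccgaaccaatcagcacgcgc
Slc7a11: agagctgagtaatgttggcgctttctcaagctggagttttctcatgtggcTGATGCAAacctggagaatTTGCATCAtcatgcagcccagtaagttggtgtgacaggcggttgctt
Nupr1: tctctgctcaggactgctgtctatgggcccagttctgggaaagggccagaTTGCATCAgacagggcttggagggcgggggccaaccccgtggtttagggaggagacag
Asns: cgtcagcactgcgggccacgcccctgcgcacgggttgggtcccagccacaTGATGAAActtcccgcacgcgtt
The log2 fold changes of these genes were 1.68, 1.18, 1.13 and 0.64.

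**Figure D2:**
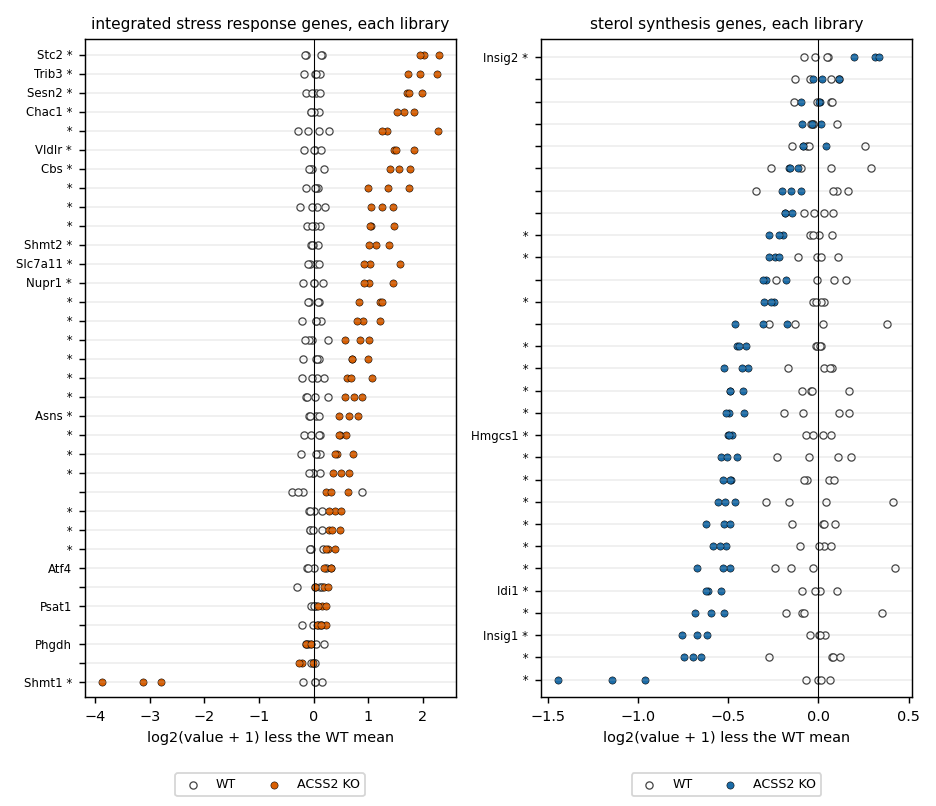
Each library's log2(value + 1) less the WT mean, for 34 integrated stress response genes (left) and 29 sterol synthesis genes (right), with open circles for the 4 WT and filled circles for the 3 ACSS2 KO libraries an asterisk for an adjusted p under 0.05 and a name for each gene described in the text. On the left 26 genes were called higher and Shmt1 lies far to the left, and on the right 19 genes were called lower and Insig2 higher.

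Related stress programs were described by their own lists. Among 37 aminoacyl-tRNA synthetases, which charge tRNAs and many of which ATF4 controls, 10 were higher (27%, against 18.1% of all genes) and 2 lower (5.41%, against 13.7%), with a median of 0.14. The number higher was 16 with equal totals, with quantile normalization and without both short-transcript libraries. Mars, the cytosolic methionyl-tRNA synthetase, had 5696, 5727, 5501 and 5568 in WT and 8458, 8022 and 9180.2 in ACSS2 KO (log2 fold change 0.60, standard error 0.06, adjusted p = 0.00025). Aars, the alanyl-tRNA synthetase, had 15163, 14156, 14632 and 14767 in WT and 19303, 18634 and 21255 in ACSS2 KO (log2 fold change 0.42, standard error 0.07, adjusted p = 0.0021). Both genes separated the groups. Of 23 tested genes of the unfolded protein response of the endoplasmic reticulum, 2 were higher and 0 lower in limma (3 and 4 at an unadjusted p under 0.05), with a median of -0.030. The counts were 4 higher and 6 lower after the length correction, 6 and 0 with equal library totals, and 4 and 4 without both short-transcript libraries. The 2 called higher were Herpud1, a factor in the degradation of misfolded proteins, with 1543, 1655, 1495 and 1488 in WT and 3030.3, 2769 and 3108 in ACSS2 KO (log2 fold change 0.94, standard error 0.07, adjusted p = 3.7e-05), and Xbp1, a transcription factor of the response, higher by 0.29 on the log2 scale (adjusted p = 0.014). The call for Xbp1 was lost without ACSS2 KO replicate 1 (adjusted p = 0.068) or 2 (adjusted p = 0.061). Herpud1 in ACLY KO libraries was 2442 to 2548.

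Sterol synthesis genes were lower in ACSS2 KO. Of 29 tested genes of the pathway and other SREBP2 targets, 19 were lower (65.5%, against 13.7% of all genes), 1 was higher and 9 were not called, and the median log2 fold change was -0.45. Groups did not overlap for 20 lower members and 1 higher member, and for 20.3% and 23.6% of all genes. The count of members called lower was between 15 and 22 with any 1 library left out. It was 16 of 24 members off chromosomes 1, 3, 11 and 14, against 1359 of 9725 genes.

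Regulators of the pathway were among the members that moved. Insig1, which holds the SREBPs in the endoplasmic reticulum and is itself their target, had 3789.9, 4022, 3924 and 3950.1 normalized counts in WT and 2454, 2552 and 2321 in ACSS2 KO (log2 fold change -0.68, standard error 0.06, adjusted p = 8.6e-05). Every ACSS2 KO library was below every WT library. Insig2, a relative of Insig1 with the same role, was the member that rose, with 783, 859, 856 and 817 in WT and 1031, 949 and 1045 in ACSS2 KO (log2 fold change 0.28, standard error 0.07, adjusted p = 0.013). It was chosen after its values were seen and lies on chromosome 1, whose median was 0.178. Its call was lost without ACSS2 KO replicate 1 (adjusted p = 0.059) or 4 (adjusted p = 0.070). Abca1, the cholesterol exporter that liver X receptors induce, is not on the list and went the other way, with 89.9, 68.2, 119.9 and 97.4 in WT and 223, 258 and 278 in ACSS2 KO (log2 fold change 1.44, standard error 0.18, adjusted p = 0.00064).

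Enzymes of the pathway were among the lower members. Hmgcs1, which makes HMG-CoA from acetyl-CoA and acetoacetyl-CoA, had 8634, 9208, 9488 and 8868 in WT and 6478, 6373 and 6409 in ACSS2 KO (log2 fold change -0.49, standard error 0.06, adjusted p = 0.00043). Idi1, the isopentenyl-diphosphate isomerase, had 6805, 7784, 7276 and 7144 in WT and 4972, 4728 and 4694 in ACSS2 KO (log2 fold change -0.59, standard error 0.06, adjusted p = 0.00028). Neither gene had groups that overlapped. A search of the same 250-base windows for the sterol element TCACNCCAC on both strands found it in 1 of 21 members with a promoter sequence (4.76%) and in 331 of 27025 symbols (1.22%). That gene was Hmgcs1, shown here because it was the member with a match. The part printed, the match in capitals with 50 bases on either side, is at chr13:119690164-119690272 on the plus strand of GRCm38.p6.
Hmgcs1: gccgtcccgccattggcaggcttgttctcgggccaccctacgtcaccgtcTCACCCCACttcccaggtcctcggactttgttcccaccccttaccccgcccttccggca

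The call count for genes of fatty acid synthesis depended on the settings. Of 19 tested members of a list of fatty acid synthesis and SREBP1 targets, 5 were lower (26.3%, against 13.7% of all genes) and 1 higher, and the median was -0.034. The number lower was 3 with equal library totals and 8 without both short-transcript libraries. Scd1, the stearoyl-CoA desaturase that makes monounsaturated fatty acids, had 156, 126, 145 and 160.4 in WT and 22.3, 18.6 and 17.8 in ACSS2 KO (log2 fold change -2.85, standard error 0.14, adjusted p = 6.4e-06). It was also low in the ACLY KO libraries, at 21.4, 20.8, 18.9 and 18.3. Fasn, the fatty acid synthase (chosen after its values were seen), had 17219.9, 10292, 18108 and 18483 in WT and 13627, 15811 and 14229.9 in ACSS2 KO. WT replicate 2 lay below all ACSS2 KO libraries and the other WT libraries lay above them, so that the log2 fold change of -0.10 was not called (adjusted p = 0.73), was 0.0030 with equal library totals and 0.067 with quantile normalization, and was -0.30 (adjusted p = 0.0018) without WT replicate 2.

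Genes of lipid storage and fatty acid uptake moved both ways. In the list of triglyceride synthesis and lipid droplets, 5 of 23 members were higher (21.7%, against 18.1% of all genes) and 8 lower (34.8%, against 13.7%), and 5 were lower with equal library totals. Plin2, the coat protein of lipid droplets, had 4664, 5076, 4507 and 4445 in WT and 3433, 3217 and 3432 in ACSS2 KO (log2 fold change -0.47, standard error 0.07, adjusted p = 0.0011). Lipa, the lysosomal acid lipase, had 1631, 1429, 1646 and 1638 in WT and 2320.1, 2244 and 2356 in ACSS2 KO (log2 fold change 0.54, standard error 0.07, adjusted p = 0.00065). Plin2 was lower and Lipa higher in every ACSS2 KO library than in any WT library. Of 10 tested acyl-CoA synthetases, the enzyme class of ACSS2, 3 were higher (30%, against 18.1% of all genes) and 2 lower (20%, against 13.7%). Slc27a1, a fatty acid transporter with synthetase activity, had 125, 73.0, 107 and 93.1 in WT and 213, 249 and 262 in ACSS2 KO (log2 fold change 1.29, standard error 0.18, adjusted p = 0.001).

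**Figure D3:**
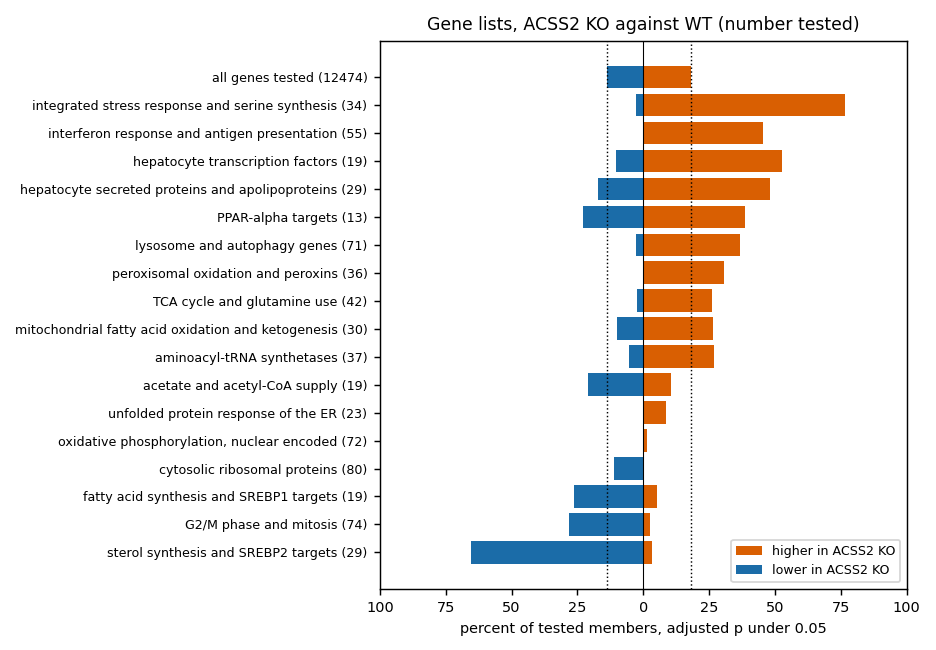
Percent of the tested members of each gene list that were called higher (right, orange) or lower (left, blue) in ACSS2 KO, with the number tested in parentheses and dotted lines at the shares over all genes, 18.1% higher and 13.7% lower. The integrated stress response reaches 76.5% higher and sterol synthesis 65.5% lower, and oxidative phosphorylation has 1 member called of 72, a count that depends on the settings.

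Fatty acid oxidation genes were described for mitochondria and peroxisomes. Among 30 mitochondrial genes 8 were higher (26.7%, against 18.1% of all genes) and 3 lower (10%, against 13.7%). The number higher was 16 after the length correction, 17 with equal library totals and 18 without both short-transcript libraries. Cpt1c, a form of carnitine palmitoyltransferase best known from the brain, had 64.4, 79.0, 58.2 and 68.8 in WT and 8.97, 9.38 and 9.34 in ACSS2 KO (log2 fold change -2.74, standard error 0.17, adjusted p = 1.6e-05). It was the member with the largest change, and the ACLY KO libraries were low as well, at 10.4, 4.72, 10.2 and 4.88. Among 36 peroxisomal genes 11 were higher and 0 lower in limma (12 and 1 at an unadjusted p under 0.05), where 18.1% of all genes were higher, and off chromosomes 1, 3, 11 and 14 the count was 6 of 26, against 1554 of 9725 genes. Phyh, which begins the breakdown of phytanic acid, had 418, 463, 375 and 400.0 in WT and 716, 639 and 717 in ACSS2 KO (log2 fold change 0.74, standard error 0.09, adjusted p = 0.00051). Acox2, the oxidase of branched fatty acids and bile acid intermediates, had 68.4, 59.7, 87.8 and 59.2 in WT and 126, 134 and 212 in ACSS2 KO (log2 fold change 1.16, standard error 0.21, adjusted p = 0.0043). No WT library reached the ACSS2 KO range in either gene, and Acox2 lies on chromosome 14, whose median was 0.204.

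Of 13 tested targets of PPARα, the fasting-responsive nuclear receptor of the liver, 5 were higher (38.5%, against 18.1% of all genes) and 3 lower (23.1%, against 13.7%). Ppargc1a, a coactivator that promotes mitochondrial biogenesis, had 217, 204, 215 and 202 normalized counts in WT and 694, 758 and 728 in ACSS2 KO (log2 fold change 1.79, standard error 0.07, adjusted p = 2.5e-06). Angptl4, a secreted inhibitor of lipoprotein lipase, had 397, 437, 375 and 377 in WT and 115, 103 and 98.7 in ACSS2 KO (log2 fold change -1.90, standard error 0.09, adjusted p = 6.4e-06). Acot1, a cytosolic acyl-CoA thioesterase, had 256, 318, 239 and 232 in WT and 536, 489 and 532 in ACSS2 KO (log2 fold change 1.0, standard error 0.12, adjusted p = 0.00043). Thus the list held rises and falls of more than 1.5 on the log2 scale side by side. The ACLY KO libraries had 652 to 774 for Ppargc1a and 61.1 to 95.4 for Angptl4, against the same WT libraries.

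Of 42 genes of the TCA cycle and glutamine use, 11 were higher (26.2%, against 18.1% of all genes) and 1 lower (2.38%, against 13.7%). The number higher was 19 without WT replicate 2 and also without both short-transcript libraries, 7 without WT replicate 1 or 3, 6 without WT replicate 4 or ACSS2 KO replicate 1 or 4, and 22 with equal library totals. Gpt2, the mitochondrial alanine transaminase and a known ATF4 target, had 2082, 2004, 2178 and 2202 in WT and 5609, 5298 and 6787 in ACSS2 KO (log2 fold change 1.47, standard error 0.09, adjusted p = 1.7e-05). Pdk2, a kinase that inhibits pyruvate dehydrogenase, had 68.6, 69.5, 62.4 and 50.4 in WT and 161, 176 and 223 in ACSS2 KO (log2 fold change 1.56, standard error 0.16, adjusted p = 0.00022), on chromosome 11. Its relative Pdk1, which hypoxia induces, was the member that fell, from 929, 1092, 1045 and 1004 in WT to 631, 654 and 596 in ACSS2 KO (log2 fold change -0.70, standard error 0.07, adjusted p = 0.00027). Both kinases had groups that did not overlap. Cs, the citrate synthase, had 9591, 8479.7, 9805 and 9784 in WT and 12280.1, 12673 and 12867 in ACSS2 KO (log2 fold change 0.42, standard error 0.07, adjusted p = 0.0025).

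Of 33 genes of glycolysis, gluconeogenesis and the pentose phosphate pathway, 7 were higher (21.2%, near the 18.1% of all genes) and 11 lower (33.3%, against 13.7%). Pck2, the mitochondrial phosphoenolpyruvate carboxykinase, had 2635, 2949, 2469 and 2349 in WT and 6087, 5230.0 and 7499 in ACSS2 KO (log2 fold change 1.26, standard error 0.13, adjusted p = 0.0002), on chromosome 14. Pfkp, the platelet form of phosphofructokinase, had 1876, 1736, 2016 and 1875 in WT and 3911, 3886 and 4244 in ACSS2 KO (log2 fold change 1.10, standard error 0.07, adjusted p = 2e-05). G6pdx, the first enzyme of the pentose phosphate pathway, had 1016, 818, 995 and 1029 in WT and 1493, 1523 and 1648 in ACSS2 KO (log2 fold change 0.69, standard error 0.09, adjusted p = 0.00085). These 3 genes rose without overlap. Hk2, the inducible hexokinase, had 3302, 2962, 3352 and 3459.6 in WT and 2214, 2355 and 2286 in ACSS2 KO (log2 fold change -0.51, standard error 0.07, adjusted p = 0.00084) and fell in every ACSS2 KO library. Of 72 nuclear genes of oxidative phosphorylation limma called 1, as higher, and the median was -0.041. This depended on the settings: 17 were higher and 1 lower after the length correction, with a median of 0.052, and 10 were higher and 2 lower without both short-transcript libraries, with a median of 0.020.

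Interferon response and antigen presentation genes were higher as a group. Of 55 tested members 25 were higher (45%, against 18.1% of all genes) and 0 lower (against 13.7%) in limma. At an unadjusted p under 0.05 these were 29 and 0, and the median was 0.33. For 27 members the groups were separated upward, as for 23.6% of all genes. Off chromosomes 1, 3, 11 and 14 the count was 16 of 41, against 1554 of 9725 genes. With quantile normalization 18 were higher and 2 lower. Ifih1, the cytosolic sensor MDA5 of double-stranded RNA, had 267, 239.6, 279 and 259 normalized counts in WT and 509, 497 and 558 in ACSS2 KO (log2 fold change 0.99, standard error 0.08, adjusted p = 7.3e-05). Its relative Ddx58, the sensor RIG-I, had 576, 549, 596 and 568 in WT and 801, 866 and 843 in ACSS2 KO (log2 fold change 0.55, standard error 0.06, adjusted p = 0.0004), a call that was lost with all 14 libraries in the fit (adjusted p = 0.076). Psmb8, a subunit of the immunoproteasome, had 47.3, 65.9, 46.8 and 43.0 in WT and 176, 171 and 197 in ACSS2 KO (log2 fold change 1.83, standard error 0.16, adjusted p = 9.5e-05). All 3 had groups that did not overlap. Tap1, the peptide transporter of antigen presentation, had 65.5, 50.9, 51.6 and 61.5 in WT and 145, 136 and 146 in ACSS2 KO (log2 fold change 1.31, standard error 0.13, adjusted p = 0.00016). Ifitm3, a membrane protein that blocks viral entry, had 81.0, 95.9, 77.4 and 82.0 in WT and 200.3, 193 and 236 in ACSS2 KO (log2 fold change 1.31, standard error 0.12, adjusted p = 0.00011). Macrophage and leukocyte markers summed to 1630 to 1746 in ACSS2 KO against 1431 to 1543 in WT. Of those 24 markers 16 had a mean under 1 normalized count, and the sum was mostly Csf1r and Cd14. The part of these markers' cells in the interferon values was not tested.

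Genes of hepatocyte identity moved both ways, from low levels. Of 19 tested hepatocyte transcription factors 10 were higher (52.6%, against 18.1% of all genes) and 2 lower. Hnf4a, a master regulator of hepatocyte genes, had 154, 152, 193 and 189 in WT and 43.8, 30.7 and 44.8 in ACSS2 KO (log2 fold change -2.10, standard error 0.17, adjusted p = 6.2e-05). Klf15, a factor induced by fasting and glucocorticoids, had 21.8, 25.1, 28.3 and 23.3 in WT and 85.7, 75.4 and 83.4 in ACSS2 KO (log2 fold change 1.69, standard error 0.15, adjusted p = 9.7e-05). Prox1, a factor of early liver development, had 54.3, 43.4, 62.1 and 71.1 in WT and 183, 226 and 216 in ACSS2 KO (log2 fold change 1.85, standard error 0.17, adjusted p = 0.00014), on chromosome 1. Hnf4a was lower, and Klf15 and Prox1 higher, in each ACSS2 KO library than in any WT library. Of 29 tested secreted liver proteins and apolipoproteins 14 were higher (48.3%, against 18.1% of all genes) and 5 lower (17.2%, against 13.7%). Off chromosomes 1, 3, 11 and 14 the counts were 9 and 5 of 22, against 1554 and 1359 of 9725 genes. Alb, the serum albumin, had 30.7, 27.7, 36.9 and 30.3 in WT and 129, 137 and 135 in ACSS2 KO (log2 fold change 2.06, standard error 0.13, adjusted p = 2.2e-05). Agt, the angiotensinogen that the liver secretes, is not on that list and had 321, 319.7, 284 and 286 in WT and 1924, 1710.2 and 2075 in ACSS2 KO (log2 fold change 2.65, standard error 0.09, adjusted p = 1.1e-06). Alb and Agt were several times higher in every ACSS2 KO library, while Alb stayed at a low level for a liver gene. In bulk samples fewer cells with a transcript and less of it per cell cannot be told apart.

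Lysosome and autophagy genes were higher for 26 of 71 tested members (36.6%, against 18.1% of all genes) and lower for 2 (2.82%, against 13.7%). Their median was 0.16. The number higher was 17 without ACSS2 KO replicate 1 or 2 and 13 without ACSS2 KO replicate 4. Without replicates 1, 2 and 4 in turn, 13.3%, 13.1% and 11.8% of all genes were higher. Rragd, a GTPase that signals amino acid supply to mTORC1, had 76.4, 60.1, 60.7 and 69.7 in WT and 250.4, 241 and 231 in ACSS2 KO (log2 fold change 1.84, standard error 0.11, adjusted p = 1.9e-05). Ctsc, the protease cathepsin C, had 146, 93.2, 118 and 115 in WT and 342, 341 and 401 in ACSS2 KO (log2 fold change 1.62, standard error 0.15, adjusted p = 0.00012). Naglu, which degrades heparan sulfate, had 576, 557, 576 and 522 in WT and 896, 905 and 1002 in ACSS2 KO (log2 fold change 0.74, standard error 0.07, adjusted p = 0.00015), on chromosome 11. For these 3 the groups did not overlap. Lamp2, a protein of the lysosomal membrane, rose by 0.40 on the log2 scale (adjusted p = 0.00073).

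NRF2 and glutathione genes had 12 of 41 higher and 8 lower (29.3% and 19.5%, against 18.1% and 13.7% of all genes), and 13 were lower after the length correction and 16 without both short-transcript libraries. Cbr1, a carbonyl reductase, had 195, 209.7, 131 and 151 in WT and 603, 536 and 607 in ACSS2 KO (log2 fold change 1.78, standard error 0.16, adjusted p = 0.00012). Gstm4, a glutathione transferase on chromosome 3 with close paralogs that may share reads, had 18.5, 21.2, 19.4 and 16.7 in WT and 0, 1.46 and 1.06 in ACSS2 KO (log2 fold change -3.53, standard error 0.39, adjusted p = 0.00033). At such levels its fold depends on the added 1. The rise of Cbr1 and the fall of Gstm4 were both without overlap. Among p53 targets 11 of 34 were higher and 3 lower (32% and 8.8%, against 18.1% and 13.7% of all genes). The number higher was 7 under quantile normalization, and the number lower was 7 after the length correction and 6 without both short-transcript libraries. Trp53inp1, a p53 target that promotes autophagy, had 63.6, 44.5, 95.2 and 68.2 in WT and 159, 178 and 254 in ACSS2 KO (log2 fold change 1.54, standard error 0.26, adjusted p = 0.0026).

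Acetyl-CoA feeds histone acetylation, and the genes that write, erase and read the mark form a list of their own. Of 43 members 8 were higher (18.6%, against 18.1% of all genes) and 3 lower (6.98%, against 13.7%). The number lower was 0 with equal totals and with quantile normalization in limma, 8 after the length correction and 7 without both short-transcript libraries. Hdac11, the sole class IV histone deacetylase, had 277, 325, 274 and 307 in WT and 570.4, 579 and 630.0 in ACSS2 KO (log2 fold change 1.0, standard error 0.09, adjusted p = 9.3e-05). Hdac6, a cytosolic deacetylase of tubulin, had 906, 902, 1001 and 908 in WT and 1262, 1392 and 1279.5 in ACSS2 KO (log2 fold change 0.50, standard error 0.07, adjusted p = 0.00096). In ACLY KO libraries these genes had 565 to 600.1 and 1175 to 1266. Of 13 tested clustered histone genes limma called 0 (2 were lower at an unadjusted p under 0.05), and since their transcripts mostly lack poly(A) tails their values are uncertain in these libraries.

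Genes of cell contacts changed both ways. In a list of integrins and cell adhesion 14 of 54 tested genes were higher and 13 lower (25.9% and 24.1%, against 18.1% and 13.7% of all genes), and 8 were lower with equal library totals. Gja1, the gap junction protein connexin 43, had 697, 584, 720.5 and 740.3 normalized counts in WT and 51.1, 50.7 and 57.8 in ACSS2 KO (log2 fold change -3.66, standard error 0.11, adjusted p = 1.1e-06). Cdh1, E-cadherin, had 559, 550.2, 529 and 547 in WT and 179, 179.7 and 213 in ACSS2 KO (log2 fold change -1.52, standard error 0.08, adjusted p = 9.4e-06). Both were low in the ACLY KO libraries too, with 49.0 to 64.5 and 49.6 to 70.7. Gjb2, connexin 26, went up, from 129.8, 137, 138 and 125 in WT to 332, 300.3 and 417 in ACSS2 KO (log2 fold change 1.38, standard error 0.12, adjusted p = 9.3e-05), and had 22.3 to 49.6 in ACLY KO. Lama4, a laminin chain of vessel basement membranes, had 65.3, 43.9, 65.0 and 65.4 in WT and 302, 325 and 366 in ACSS2 KO (log2 fold change 2.46, standard error 0.16, adjusted p = 2.3e-05). Lamb3, a chain of epithelial laminin, went the other way, by -1.18 on the log2 scale (adjusted p = 6.4e-06), and lies on chromosome 1, which had a positive median. Tubb3, a neuronal tubulin, fell by more, with -3.55 on the log2 scale (adjusted p = 6.4e-06).

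Genes of signaling pathways changed both ways. Against 18.1% and 13.7% of all genes, the TGF-β and BMP list had 14 of 48 tested members higher (29.2%) and 9 lower, and the Wnt list 13 of 33 higher (39.4%) and 6 lower, or 3 lower with equal library totals. Tgfb1i1, a focal adhesion protein induced by TGF-β, had 39.1, 49.5, 36.7 and 41.1 in WT and 338, 370.5 and 330.0 in ACSS2 KO (log2 fold change 3.03, standard error 0.12, adjusted p = 3.3e-06). Inhba, the activin subunit, had 597, 697, 708 and 705 in WT and 127, 155 and 115 in ACSS2 KO (log2 fold change -2.35, standard error 0.12, adjusted p = 6.4e-06). Bmp6, a hepatic regulator of iron, had 773, 666, 751 and 717 in WT and 1747, 1609.9 and 1579 in ACSS2 KO (log2 fold change 1.18, standard error 0.07, adjusted p = 1.9e-05). Inhba mRNA thus fell where Bmp6 mRNA rose. Dkk3, a secreted protein of the Dickkopf family, had 525, 484, 536 and 509 in WT and 1869, 1897 and 1862 in ACSS2 KO (log2 fold change 1.87, standard error 0.06, adjusted p = 1.1e-06). Wnt7a, a Wnt ligand, had 1672, 1457, 1498 and 1479.7 in WT and 737, 734 and 671 in ACSS2 KO (log2 fold change -1.09, standard error 0.07, adjusted p = 2.3e-05). Tnfrsf19, the receptor TROY and a Wnt target, had 205, 183, 196 and 194 in WT and 961, 915 and 1006 in ACSS2 KO (log2 fold change 2.30, standard error 0.07, adjusted p = 1.1e-06), on chromosome 14. For all 6 genes the groups stood apart. Notch3 had 23.5, 17.4, 33.6 and 25.3 in WT and 151, 182 and 209 in ACSS2 KO (log2 fold change 2.83, standard error 0.22, adjusted p = 5.8e-05), while the Notch list had 4 of 22 members higher, the 18.2% being near the share of all genes, and 1 lower, or 6 lower after the length correction and without both short-transcript libraries. Of drug-metabolizing genes, Fmo2, a flavin monooxygenase on chromosome 1, had 32.6, 23.2, 23.6 and 33.0 in WT and 253, 253 and 316 in ACSS2 KO (log2 fold change 3.25, standard error 0.17, adjusted p = 8.7e-06), and Cyp2s1, a cytochrome P450 of epithelia, fell from 329.7, 271, 334 and 347 to 52.3, 52.5 and 54.0 (log2 fold change -2.57, standard error 0.11, adjusted p = 3.4e-06).

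Proliferation genes shifted by small amounts that depended on the settings. Of 74 tested G2/M and mitosis genes 2 were higher (2.7%, against 18.1% of all genes) and 21 lower (28.4%, against 13.7%), with a median of -0.14. Off chromosomes 1, 3, 11 and 14 the number lower was 16 of 55, against 1359 of 9725 genes. With library totals set equal, 8 were higher and 10 lower, and with quantile normalization 5 and 11. Without WT replicate 1, ACSS2 KO replicate 1, 2 or 4 the number lower was 13, 12, 9 and 9, without WT replicate 2 it was 40, without both short-transcript libraries 35 and after the length correction 33. Kif23, a kinesin of cytokinesis, had 5266, 5286, 5447 and 5245 in WT and 3886, 3931 and 3861 in ACSS2 KO (log2 fold change -0.45, standard error 0.05, adjusted p = 0.00037). Ccna2, cyclin A2, had 10493, 11758, 11337 and 10809 in WT and 7939, 7901 and 7744 in ACSS2 KO (log2 fold change -0.50, standard error 0.06, adjusted p = 0.00057), on chromosome 3. Of 56 S phase genes 4 were higher and 7 lower (7.14% and 12.5%, against 18.1% and 13.7% of all genes), with 11 and 2 under equal library totals, 8 and 14 after the length correction, and 6 and 14 without both short-transcript libraries. Of 80 cytosolic ribosomal protein genes 0 were higher and 9 lower in limma (1 and 24 at an unadjusted p under 0.05), with a median of -0.32. The share lower was 11.25%, under the 13.7% of all genes. The number lower moved with single libraries: it was 47 without both short-transcript libraries and 37 after the length correction, 2 without WT replicate 1, 32 without WT replicate 2, and 3, 1 and 1 without ACSS2 KO replicate 1, 2 and 4.

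Loss of ACSS2 was also made in ACLY KO cells, which gives a second comparison with no library in common. ACLY KO cells (4 libraries) had lost the floxed Acly by adenoviral Cre, came from a single-cell clone and carried the empty vector. DKO1 cells (3 libraries) were a further clone of these cells that received the Acss2 guide. DKO1 had 1057 genes higher (8.47%) and 962 lower (7.71%) than ACLY KO. DKO1 replicate 4 and ACLY KO replicate 4 held more RNA of short transcripts than the rest of their groups (rho of -0.709 and -0.601). The part of these libraries in the list counts of this comparison was not tested. The difference between the 2 effects of ACSS2 loss, tested as an interaction in a fit of all 14 libraries, passed for 3408 genes (27.3%), and for 2121 of the 3968 genes called in ACSS2 KO (53.5%). Of the 3968 genes called in ACSS2 KO, 467 changed in the same direction in DKO1 (11.8% of the ACSS2 KO calls and 23.1% of the DKO1 calls) and 419 in the opposite direction (10.6% and 20.8%). The count of 467 was between 226 without ACLY KO replicate 2 and 1068 without DKO1 replicate 4, with 307 without ACSS2 KO replicate 4, 264 without DKO1 replicate 3, and 257, 227 and 247 without ACLY KO replicates 1, 3 and 4. Acss2 itself was 787, 660.4, 739 and 685 in ACLY KO and 578, 571 and 455 in DKO1 (log2 fold change -0.43, adjusted p = 0.045), above its WT level in both.

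The same gene groups were examined in ACLY KO cells. Of the 34 integrated stress response genes, 5 were higher and 4 lower in DKO1 than in ACLY KO, where 8.47% and 7.71% of all genes were. The interaction passed for 22 of the 34, against 27.3% of all genes and 53.5% of the genes called in ACSS2 KO. Chac1 had 1222, 1254, 1235 and 1307 in ACLY KO and 1654, 1625 and 1723 in DKO1 (log2 fold change 0.41, adjusted p = 0.0072), a smaller rise than in ACLY-proficient cells (interaction -1.27, adjusted p = 1.7e-06). Slc7a11 had 628, 635, 687 and 579 in ACLY KO and 312, 282 and 278 in DKO1, a fall where ACSS2 KO showed a rise (interaction -2.30, adjusted p = 1.7e-06). The interaction is the effect in ACLY KO cells less the effect in ACLY-proficient cells. Of the 29 sterol genes, 12 were higher and 1 lower in DKO1 than in ACLY KO, where 8.47% and 7.71% of all genes were, the interaction passed for 20, and 8 of the genes called in both had opposite directions. Insig1 had 5275, 4332, 4614 and 4563 in ACLY KO and 7598, 7387 and 6809.8 in DKO1, so it rose with ACSS2 loss in ACLY KO cells and fell in ACLY-proficient cells (interaction 1.32, adjusted p = 1.3e-06). Of the 55 interferon genes, 3 were higher and 8 lower in DKO1 than in ACLY KO, against the same 8.47% and 7.71% of all genes. Psmb8 had 62.1, 61.4, 75.4 and 65.7 in ACLY KO and 22.9, 44.6 and 42.7 in DKO1 (interaction -2.72, adjusted p = 2.6e-05).

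**Figure D4:**
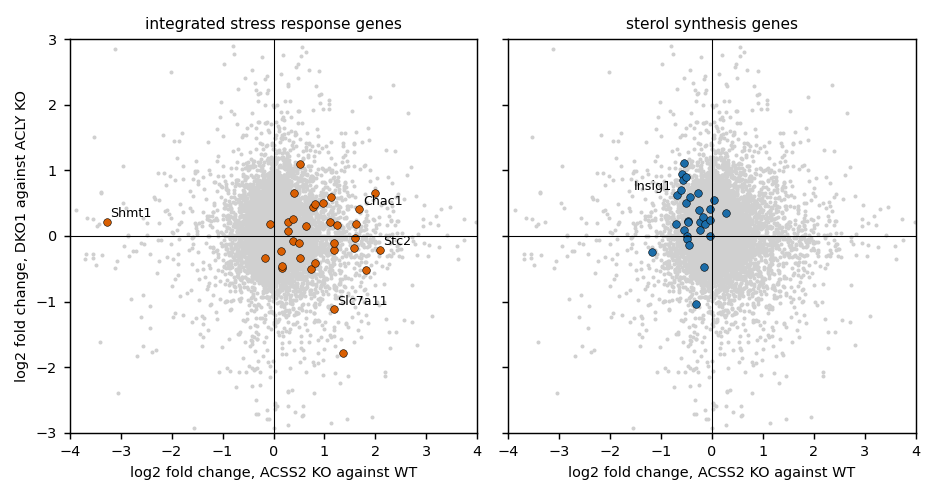
Log2 fold change of DKO1 against ACLY KO (vertical axis) and of ACSS2 KO against WT (horizontal axis) for all genes in grey, with integrated stress response genes (left) and sterol synthesis genes (right) in color, and with 26 genes outside the axes not drawn. Stress response genes spread to the right around 0 on the vertical axis, and most sterol genes lie in the upper left, with Insig1 at -0.68 and 0.63.

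A smaller group of genes moved alike in both comparisons. The genes described here were chosen for having the same direction in both, so their values are a description. Agt, described above, had 519.5, 381, 434 and 370.4 in ACLY KO and 1357, 1448 and 1941 in DKO1. The cells without ACSS2 were the high ones, as they were against WT. Maf, a leucine zipper transcription factor, had 94.9, 104, 86.4 and 96.1 in WT, 314, 288 and 262 in ACSS2 KO, 142, 100.1, 133 and 134 in ACLY KO and 331, 343 and 345 in DKO1. Abca1, described above, had 63.1, 78.4, 79.9 and 53.1 in ACLY KO and 239, 202 and 96.5 in DKO1, where DKO1 replicate 4 was the lowest of its group. Agt and Maf rose by more than 1 on the log2 scale in both comparisons.

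Other genes fell in both comparisons. Zfpm2, a cofactor of GATA factors, had 248, 218, 294 and 284 in WT and 19.7, 21.8 and 29.8 in ACSS2 KO, and 109, 143, 118 and 91.2 in ACLY KO and 25.1, 53.9 and 35.6 in DKO1. Prnd, which encodes the prion-like protein doppel, had 255, 213, 212 and 272 in WT, 90.3, 90.7 and 79.3 in ACSS2 KO, 257, 261, 239 and 271 in ACLY KO and 78.2, 96.7 and 98.3 in DKO1. In both genes no library without ACSS2 reached the range of its ACSS2-proficient counterpart. Prnd had nearly the same log2 fold change in both, -1.44 and -1.49. Since both ACSS2-deficient groups are single clones, shared changes of clones and of genotype cannot be told apart.

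Whole chromosomes shifted between WT and the ACSS2 KO clone. The median log2 fold change was 0.178 on chromosome 1 (704 genes), 0.137 on chromosome 11 (1025 genes) and 0.204 on chromosome 14 (410 genes), and -0.235 on chromosome 3 (610 genes). On chromosome 3, 229 genes were lower and 54 higher, and on chromosome 14, 147 were higher and 24 lower. The shift ran along the length of these chromosomes: with the genes split by position into 3 equal parts, the medians were 0.157 to 0.200 on chromosome 1, -0.279 to -0.172 on chromosome 3, 0.104 to 0.164 on chromosome 11 and 0.155 to 0.220 on chromosome 14. On chromosome 10 the last of the 3 parts had a median of 0.278, and the others -0.058 and -0.075. In DKO1 against ACLY KO the medians of chromosomes 1, 3, 11 and 14 were -0.027, -0.0054, 0.035 and -0.037. Other chromosomes shifted in that comparison. Its medians were 0.31 on chromosome 13, 0.18 on X and 0.11 on chromosome 2, and -0.19 on chromosome 15 and -0.17 on chromosome 19. In ACSS2 KO against WT, genes off chromosomes 1, 3, 11 and 14, 9725 in all, gave 1554 higher and 1359 lower calls, with a median of -0.019. For the integrated stress response, 21 of 27 members off them were higher and 0 lower, with a median of 0.73. Copy number was not measured in these files, and the part of the chromosomes in the results was not tested. On the Y chromosome all 4 tested genes were lower. Kdm5d, a histone demethylase encoded there, had 513, 365, 558 and 541 in WT and 86.0, 78.2 and 87.9 in ACSS2 KO (log2 fold change -2.52, standard error 0.15, adjusted p = 1.4e-05), against 105, 76.5, 98.6 and 85.7 in ACLY KO and 1369, 1390.5 and 586 in DKO1.

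**Figure D5:**
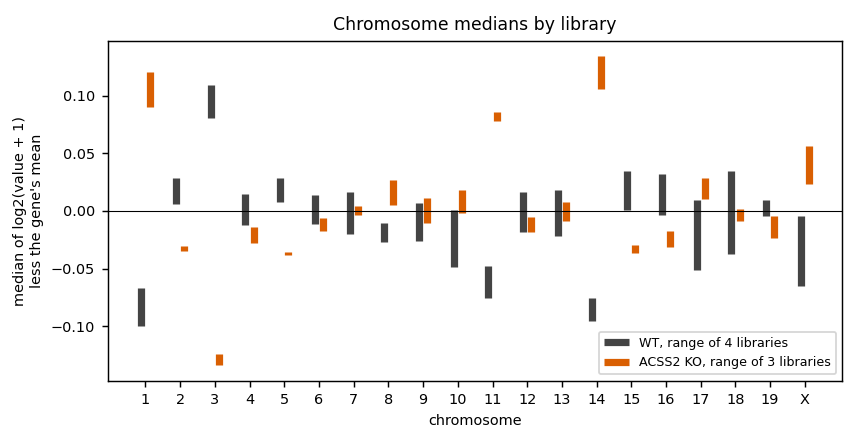
Range over libraries of the median, across the genes of each chromosome other than Y, of log2(value + 1) less the gene's mean over the 7 libraries, with black bars for the 4 WT and orange bars for the 3 ACSS2 KO libraries. Among the chromosomes drawn the bars are farthest apart on 1, 3, 11 and 14, where WT libraries lie at -0.100 to -0.067, 0.081 to 0.109, -0.076 to -0.048 and -0.096 to -0.075.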

How the data were processed

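Poly(A) RNA of mouse HCC cells was sequenced by the authors, who mapped the reads to GRCm38 with STAR. The deposited signal values are per-gene counts after division by DESeq normalization factors, made by the authors (DESeq2 version 1.0.1 in the submitters' processing notes). In a library they are only in part whole multiples of 1 value, so whole reads were not recovered and no count test was used. How reads were assigned to genes is not given in the sources used here. The table held 24972 gene symbols, 26 of which had become dates and were not used as gene names.

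Here limma 3.58.1 under R 4.3.3 (eBayes with a trend) was fitted to log2(value + 1) of the 7 libraries, keeping genes whose mean was 10 or more. The interaction used all 14 libraries, and DKO1 against ACLY KO used its own 7. The procedure was tested on simulated data. That simulation drew independent noise for each gene and library, so it did not hold the shared transcript-length differences of these libraries. Implied depth, an approximation, is the library total divided by its most frequent low value, taken as 1 read, and no counting interval was formed from it. Positions and transcript lengths came from GENCODE for GRCm38, with RefSeq filling in positions, promoter windows came from RefSeq for GRCm38.p6, and 12380 tested genes had a length.

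Genes named in the text are the 15 largest rises and the 15 largest falls (a mean of at least 50, an adjusted p under 0.01, no overlap), the 15 largest changes shared by both ACSS2-loss comparisons, genes of acetyl-CoA supply and up to 5 members of each list by adjusted p. Others are marked as chosen after their values were seen. Some genes that this rule takes are not reported here. The members of the 45 lists and the comparison itself were chosen with earlier results of these data known, so no list was tested as a set. Alternatives covered the added constant, filters, scaling, transcript length (a natural spline with 5 degrees of freedom), the variance model, the replicate block and each library left out.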

Additional observations from a re-analysis of the deposited data

Results flagged for a closer look

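The effect of ACSS2 loss was tested for a difference between ACLY-proficient and ACLY KO cells, as an interaction in limma over all 14 libraries, with the effect in ACLY KO cells less that in ACLY-proficient cells as the value. Of 89 genes checked, 67 passed at an adjusted p under 0.05, as did 53.5% of all genes called in ACSS2 KO. Most of the 89 were chosen for large changes in ACSS2 KO, which favors such a difference, so their share shows nothing about them as a set. All values are on the log2 scale. Among genes of the stress programs, tRNA charging and Gpt2 that passed, the effect was lower in ACLY KO cells for all but Shmt1, at 3.49. The lower ones were Sesn2 -2.34, Slc7a11 -2.3, Stc2 -2.3, Cbs -1.76, Vldlr -1.64, Pck2 -1.44, Shmt2 -1.4, Trib3 -1.33, Gpt2 -1.28, Chac1 -1.27, Herpud1 -1.06, Aars -0.923, Psat1 -0.647, Mars -0.587 and Asns -0.488. Among sterol and desaturase genes the effect was higher in ACLY KO cells, with Scd1 2.86, Idi1 1.54, Insig1 1.32 and Hmgcs1 0.446.

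Other genes with a lower effect in ACLY KO cells were Fmo2 -3.42, Tgfb1i1 -3.35, Prox1 -3.18, Alb -3.11, Notch3 -2.79, Psmb8 -2.72, Lama4 -2.58, Ppargc1a -2.38, Aldh1b1 -2.16, Tap1 -2.15, Tnfrsf19 -2.05, Dkk3 -2.03, Rragd -2.01 and Ifitm3 -1.87. Smaller differences in the same direction were those of Cbr1 -1.79, Pdk2 -1.7, Ctsc -1.38, Gjb2 -1.32, G6pdx -1.24, Acox2 -1.18, Hdac11 -1.13, Slc27a1 -0.908, Naglu -0.874, Cs -0.783, Agt -0.763, Hdac6 -0.693, Bmp6 -0.527 and Lipa -0.43. A higher effect in ACLY KO cells was found for Kdm5d 6.02, Cpt1c 5.82, Gstm4 5.04, Gja1 3.93, Shmt1 3.49, Tubb3 3.22, Inhba 2.95, Wnt7a 2.01 and Angptl4 2. It was smaller for Zfpm2 1.8, Hnf4a 1.78, Cdh1 1.68, Cyp2s1 1.67, Slc16a3 1.41, Pdk1 0.769, Pdha1 0.756, Aacs 0.474, Acss2 0.407, Ccna2 0.322 and Lamb3 0.274. Mean Gja1 was 54.9 normalized counts in ACLY KO and 67.2 in DKO1, against 685 in WT, whereas Kdm5d had 91.5 in ACLY KO and 1115 in DKO1. The clones differ between the comparisons as well, which cannot be told apart from the genotype.

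In 7 of the 89 genes 1 WT library lay far from the other 3, with a gap to its nearest neighbor divided by the range of the group above the 95% limit of Dixon's test for 4 samples, 0.829. Chance gives such a gap in about 1 of 20 groups. WT replicate 2 was the library for Cs (0.839), Fasn (0.846), Lama4 (0.98), G6pdx (0.838) and Lipa (0.927). It was replicate 1 for Inhba (0.902) and replicate 3 for Hdac6 (0.935). WT replicate 2 is the WT library that held more RNA of short transcripts, and the part of that in these gaps was not tested.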

How the results depend on the processing

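The count at the study's limits, 343 genes, was 217 when every library had to hold at least 10 normalized counts, 670 at a limit of 1 on the log2 scale and 161 at a limit of 2. The 3968 genes at an adjusted p under 0.05 became 2039 with the replicate number as a block, 2367 without ACSS2 KO replicate 4 and 6035 without WT replicate 2, the extremes over the libraries left out. Of these genes 51.0% were kept under the block and 0 changed sign. The labels share replicate numbers 1, 2 and 4, but same-numbered libraries did not deviate together (r = 0.0215, -0.257 and 0.123 across genes), and not every library correlated best with its own number, so the block is given here only. Under the block the 548 called genes of all 45 lists became 321, the 25 interferon genes 15, and the 467 genes changed alike in both ACSS2-loss comparisons 91. With libraries left out, the 548 ranged from 362 to 822 and the 467 from 226 to 1068. The 467 also became 704 with all 14 libraries in the fit, 1202 after the transcript length correction and 49 at a limit of log2 1 in both. Without WT replicate 2 and ACSS2 KO replicate 1 together, an alternative chosen after seeing the data, 2864 genes were higher and 2775 lower.

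With equal library totals and quantile normalization the sign turned for Acly (0.019 and 0.032), Phgdh (0.030 and 0.13) and Fasn (0.0030 and 0.067), none of them called. The integrated stress response count lay between 23 and 29 and the sterol count between 14 and 22 under every alternative run, the medians of chromosomes 1, 3, 11 and 14 stayed more than 0.1 from that of all genes, and Acss2 kept its call. Of 83 called genes named in the text, 78 kept their call under every setting, and Pdha1, Slc22a5, Insig2, Xbp1 and Ddx58 lost it under at least 1. The cause of these changes was not tested. The deposited values are not reads, so no counting error could be computed, and genes near the added 1 have understated folds.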

Other observations

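Gene lists not described above moved in both directions. Of 16 tested cytochrome P450 and xenobiotic genes, 8 were higher and 2 lower in ACSS2 KO, and of 24 hypoxia and HIF targets, 11 were higher and 7 lower (11 lower after the length correction). Collagens, laminins and other matrix genes had 14 of 62 higher and 13 lower (23 higher with equal library totals), and growth factor receptors and ligands had 15 of 54 higher and 16 lower. NF-κB targets, chemokines and cytokines had 7 of 35 higher and 9 lower (4 lower with equal library totals), and YAP and TEAD targets 3 of 30 higher and 7 lower, or 15 lower after the length correction and 16 without WT replicate 2 and ACSS2 KO replicate 1. Genes of the urea cycle and amino acid breakdown had 6 of 24 higher and 5 lower (10 and 2 with equal library totals, and 3 higher with quantile normalization), and fetal liver and progenitor markers 3 of 23 higher and 5 lower. Cholangiocyte markers had 6 of 16 higher and 3 lower, stellate cell and fibroblast markers 5 of 11 higher and 2 lower, and endothelial markers 1 of 5 higher and 1 lower, and limma called 0 of 4 macrophage and leukocyte markers (2 were higher at an unadjusted p under 0.05). Over all genes 18.1% were higher and 13.7% lower.

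Among smaller lists, 4 of 14 factors of the epithelial-mesenchymal transition were higher and 4 lower (28.6% each, against 18.1% and 13.7% of all genes). Of 16 D-type cyclins and CDK inhibitors 3 were higher and 2 lower (18.75% and 12.5%, near the shares of all genes). With equal library totals, and without both short-transcript libraries, 8 were higher, where 25.3% and 23% of all genes were. Of 18 imprinted genes 4 were higher and 1 lower (22.2% and 5.56%). After the length correction, and without both short-transcript libraries, 7 were higher, where 23.8% and 23% of all genes were. In DKO1 against ACLY KO, 6 of 13 clustered histone genes were higher and 1 lower, where 8.47% and 7.71% of all genes were. Their median log2 fold change was 1.33 there and 0.11 in ACSS2 KO against WT. The interaction passed for 5 of these 13 genes and for 27.3% of all genes. DKO1 replicate 4 held more RNA of short transcripts than the rest of its group (Spearman's rho with transcript length of -0.709), and its part in the histone values was not tested.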
